A study of Rattus norvegicus with 20 samples.

Results

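The comparison set the right ventricular outflow tract of rats with experimental pulmonary embolism (PE) against the same region of vehicle-treated rats. It used 10 of the 20 arrays of the series, chosen by their titles: 5 outflow tracts from rats given embolic beads and 5 from controls. All rats were male Sprague Dawley animals of about 350 g. The embolism animals, labelled PE2.0, received polystyrene beads 25 microns wide through a jugular vein, at 2000000 per 100 g body weight in 0.01% Tween-20. The controls received Tween-20 alone by the same route. Tissue was taken 6 weeks later, after a brief perfusion of the heart, and each right ventricle was cut into an outflow tract (base) sample and an apex sample. The other 10 arrays, 5 vehicle apex and 5 PE apex samples of the same rats, entered the shared estimate of the spread and serve as the regional comparison. Beads lodge permanently and do not dissolve as a clot does, which limits the animals as a model of thromboembolism. No gene was altered in any group.

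Labelled RNA was hybridised to Affymetrix arrays, and the values are linear signals that the authors scaled so that every array had the same trimmed mean, about 500. Fold changes below are differences of log2(signal + 16), so changes of dim genes are understated. Errors written ± are standard errors from the limma fit with n = 5 against 5, and a gene was called when its limma p-value, adjusted by the Benjamini-Hochberg method over 31042 probe sets, was below 0.05. A gene is represented by 1 probe set, the brightest on average, which gave 14217 genes.

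RNA quality differed between the groups. The signal ratio of the 3' to the 5' control probe sets of GAPDH, which rises as RNA is degraded or incompletely copied, was 1.38 to 1.66 on the vehicle outflow arrays. On PE outflow replicates 1 to 5 it was 1.71, 6.12, 1.70, 2.20 and 2.34. The matching actin ratio reached 11.5 on PE replicate 2, against 2.66 to 3.14 in the vehicle group. PE replicate 2 also stood apart in a principal component analysis of the 10 arrays, at -115.5 on the second component (17.4% of the variance), where the other 9 arrays lay between -0.1 and 28. The first component (44.8%) separated the groups without overlap, with vehicle arrays between -76.6 and -53.3 and PE arrays between 38.3 and 91.3. Results are therefore also given without PE replicate 2, and for PE replicates 1 and 3 alone, whose ratios were nearest to those of the controls. The part of RNA quality in the differences below was not tested beyond these values.

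The outflow tract, or infundibulum, is the muscular funnel through which the right ventricle ejects into the pulmonary artery, so a blocked pulmonary bed raises the pressure it works against. Heart muscle normally makes most of its energy by burning fatty acids in mitochondria, under the nuclear receptors PPAR-alpha and ERR-alpha and their coactivator PGC-1 alpha. Under long pressure load the ventricle is known to remodel, with loss of metabolic genes, return of fetal muscle genes, matrix deposition by activated fibroblasts, and entry of immune cells.

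The response was broad. Of the 14217 genes, 3741 were higher and 2555 lower in PE, 26.3% and 18.0% of all genes tested. These shares are the background for list counts from all arrays as deposited. Counts from other settings have other backgrounds. Of all genes, 2786 were higher and 3160 lower after median centring, and 3260 and 2825 after quantile normalization. With the GAPDH ratio as a covariate they were 3228 and 2658. Leaving out 1 array gave 3333 to 3793 higher and 2288 to 2884 lower. At least 4-fold changes, 2 log2 units, were found for 222 called genes that rose and 46 that fell. The 2 groups did not overlap for 2668 genes with higher (18.8%) and 1805 with lower PE values (12.7%). Without PE replicate 2, 3793 genes were higher (26.7%) and 2884 lower (20.3%), and 94.3% of the genes called with all arrays kept their call. With PE replicates 1 and 3 alone, 2486 were higher (17.5%) and 2017 lower (14.2%), and 68.6% kept their call. The split depends on the scaling. With each array centred on its median, 4415 probe sets were higher and 5966 lower, against 6083 (19.6%) and 4637 (14.9%) as deposited, because the median of all probe sets moved from 0.052 to -0.082 on the log2 scale. The median over all genes was 0.098.

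**Figure D1:**
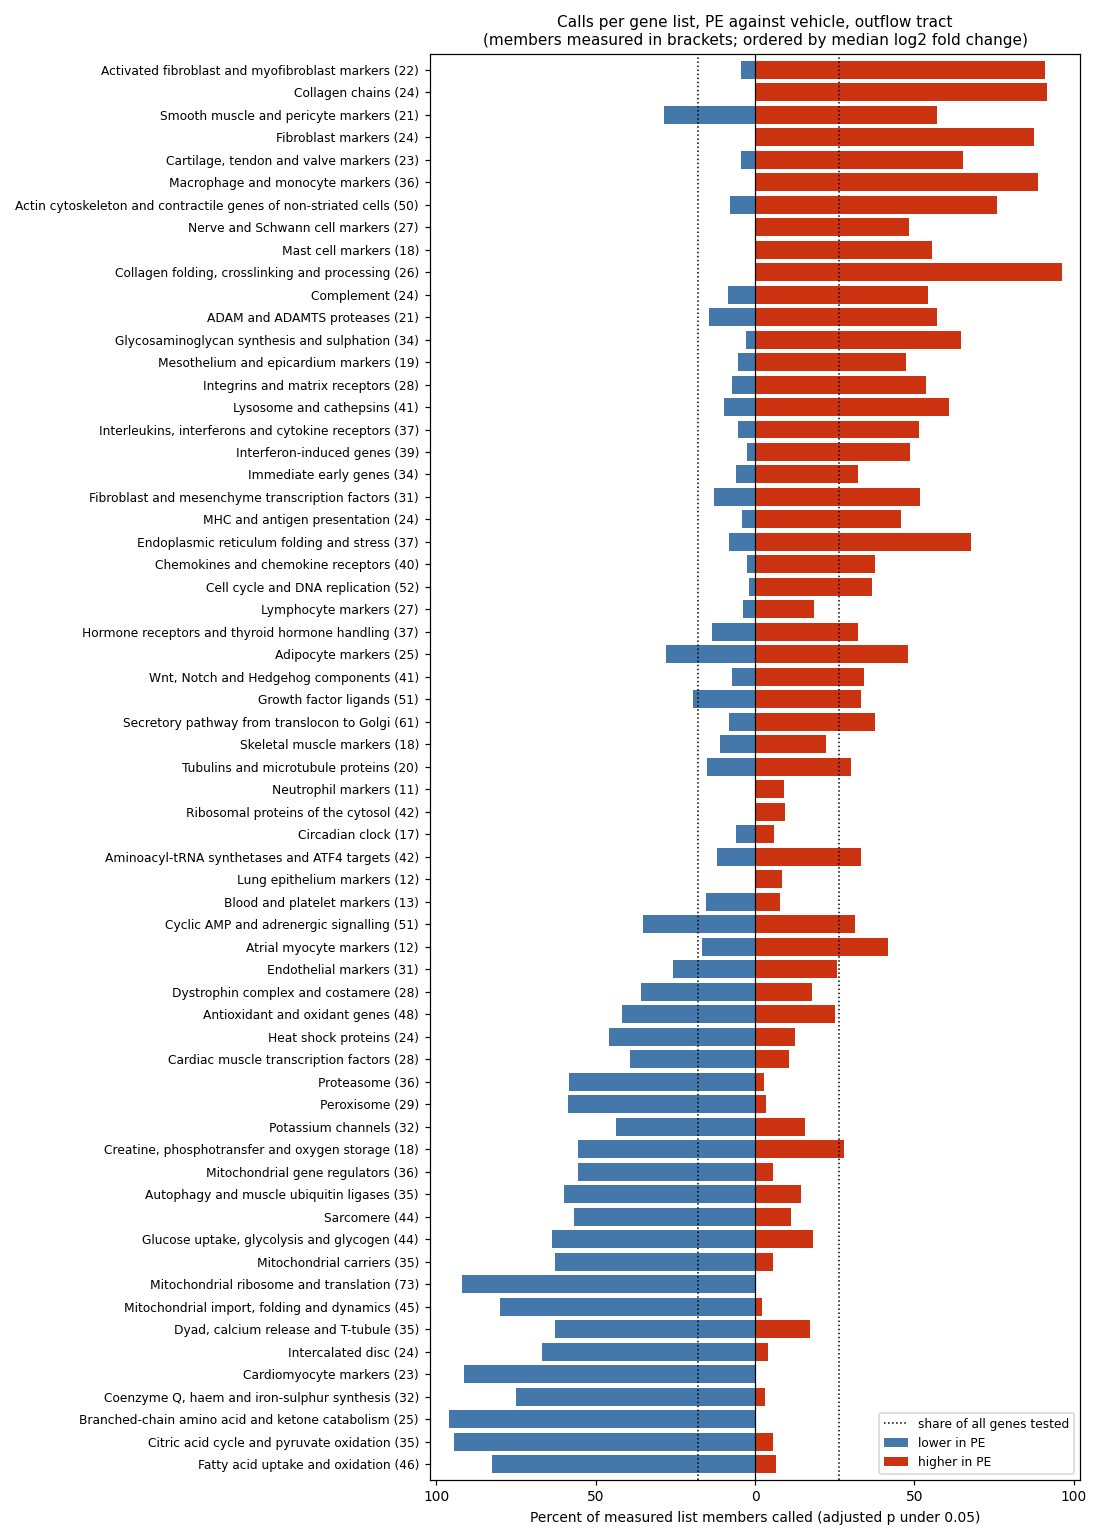
Percent of the measured members of each of 63 gene lists called lower (left, blue) or higher (right, red) in PE outflow tract than in vehicle outflow tract, with the number of members measured in brackets; dotted lines mark the shares of all genes tested, 18.0% lower and 26.3% higher. Lists of mitochondrial and heart muscle genes fill the lower end, and fibroblast, collagen, actin and macrophage lists the upper end.

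Genes of energy metabolism were lower in large part, and so were many of their regulators. Of 36 regulators of mitochondrial genes, 20 fell and 2 rose, with a median log2 fold change of -0.57. Ppara encodes PPAR-alpha, the fatty acid receptor that switches on fat oxidation. Its signal was 119, 152, 70.5, 115 and 109 on vehicle arrays 1 to 5 and 12.2, 11.9, 50.6, 2.8 and 2.7 on PE arrays 1 to 5. All PE arrays were below all vehicle arrays, the nearest being PE replicate 3, and the log2 fold change was -2.15 ± 0.32 (adjusted p = 2.93e-05). Esrra encodes ERR-alpha, an orphan receptor that drives mitochondrial genes. Its signal was 1392, 1510, 1302, 1446 and 2069 in the vehicle group and 612, 727, 525, 328 and 304 in PE, a 3.15-fold lower level (adjusted p = 2.75e-06). The PE values were lowest on replicates 4 and 5, a pattern that recurs below. The related receptors Esrrb (-1.39) and Esrrg (-0.97), the coactivator gene Ppargc1a (-1.40), the lipin coactivator Lpin1 (-1.77) and the retinoid partner Rxrg (-1.30) also fell, in log2 fold change. The 2 that rose were Nrip1, a corepressor of these receptors, at 0.90, and Prkaa1, a catalytic subunit of AMP-activated kinase, at 0.43. The call of Prkaa1 was lost after median centring (0.30), with the GAPDH ratio as a covariate (0.34) and with PE replicates 1 and 3 alone (0.37). The muscle-rich subunit gene of that kinase, Prkaa2, moved the other way, at -2.48. In bulk tissue such as this, fewer cells of a type and less RNA per cell cannot be told apart.

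The short form of the ERR binding motif, AAGGTCA on either strand, was found in 4.38% of the promoters of genes that fell and 2.49% of those that rose, against 3.15% of all 11700 promoters matched. The promoters were RefSeq windows on GRCr8 from 250 bases before to 50 bases after each gene's start. It was in 19 of the 317 promoters of the mitochondrial lists together (5.99%), and the motif contains the half-site that many other nuclear receptors share. The following windows are shown because these 5 genes of the regulator, fatty acid and coenzyme Q lists fell and have the motif upstream of the start. Acad11 of the fatty acid list has it there too and was not called (-0.30). They are read 5′ to 3′ along the gene's strand, with the motif in capitals.
Perm1 (chr5:172082029-172082075, + strand): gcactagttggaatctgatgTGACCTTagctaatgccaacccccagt
Sirt5 (chr17:21543193-21543239, - strand): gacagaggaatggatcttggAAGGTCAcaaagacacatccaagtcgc
Acacb (chr12:48138343-48138389, - strand): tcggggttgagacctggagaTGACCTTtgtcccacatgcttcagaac
Isca1 (chr17:4910634-4910680, + strand): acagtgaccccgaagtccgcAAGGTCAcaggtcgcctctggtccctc
Cox17 (chr11:75912095-75912141, - strand): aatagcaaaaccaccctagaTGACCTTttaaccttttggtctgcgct
Perm1, a muscle regulator of oxidative genes, fell by 1.34 on the log2 scale (adjusted p = 0.017), a call lost without PE replicate 4 (-1.05) or 5 (-1.02). The mitochondrial desuccinylase gene Sirt5 fell by 1.06. Acacb, whose product makes the malonyl-CoA that gates fatty acid entry, fell by 2.16. Isca1, an iron-sulphur assembly gene, fell by 1.06, and Cox17, a copper chaperone for cytochrome oxidase, by 0.99. The match of letters is a description, and binding was not measured.

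Of 46 genes of fatty acid uptake and oxidation, 38 fell and 3 rose (median -1.54). Falls reached from uptake (Cd36, -1.72) and the lipid droplet (Plin5, -2.12) through the carnitine shuttle (Slc25a20, -1.82; Cpt2, -1.55) to the oxidation spiral (Acadm, -1.54; Hadh, -1.97). The risers were the acyl-CoA synthetase genes Acsl3 (1.24), Acsl4 (1.23) and Acsl5 (0.89), whose enzymes activate fatty acids. Peroxisomal genes fell in 17 of 29 and rose in 1. Among them were Ephx2, the soluble epoxide hydrolase gene (-2.19), and Ehhadh of peroxisomal beta-oxidation (-1.81), while Crot, the carnitine octanoyltransferase gene, rose (0.98).

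Oxidation of pyruvate and amino acids fell with fat oxidation. Of 35 genes of the citric acid cycle and pyruvate oxidation, 33 fell (median -1.26), including citrate synthase (Cs, -1.51), Ogdh (-1.50) and the aspartate aminotransferase gene Got1 (-2.18). The exceptions were the malic enzyme gene Me2 (0.57) and Pdk3, one of the kinases that switch off pyruvate dehydrogenase. Pdk3 signal was 79.5, 154, 163, 119 and 88.2 in the vehicle group and 386, 328, 354, 455 and 442 in PE. The groups did not overlap, and the log2 fold change was 1.62 ± 0.17 (adjusted p = 6.89e-07), while another kinase of the family, Pdk1, fell by 1.68. A dimmer second probe set of Pdk3 was not called with all arrays (0.86), where its lowest PE signal was 9.16. It was called without PE replicate 2 (1.47). Branched-chain amino acid and ketone breakdown fell in 24 of 25 genes, with none higher (median -1.20). The gene Ivd, for the leucine-pathway enzyme isovaleryl-CoA dehydrogenase, read 5778, 5377, 5548, 5580 and 7629 in the vehicle group and 2576, 1584, 2319, 1300 and 1121 in PE, 3.48-fold lower (adjusted p = 8.28e-07). The lowest vehicle array was above the highest PE array by more than 2-fold. Bcat2, which takes the first step (-1.48), and Acat1 of ketone use (-1.52) fell too.

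Most listed genes that build and equip mitochondria were lower. Coenzyme Q, haem and iron-sulphur synthesis fell in 24 of 32 genes (median -0.92). Coq9, needed to make coenzyme Q, read 18960, 16640, 20480, 17210 and 21440 in the vehicle group and 8372, 7871, 8095, 4201 and 4084 in PE, with replicates 4 and 5 at about one level and the other PE arrays at another. Its log2 fold change was -1.60 ± 0.18 (adjusted p = 2.03e-06). A dimmer second probe set of Coq9 was not called (-0.23). Mitochondrial ribosome and translation genes fell in 67 of 73, with none higher (median -0.77). Mrpl3, a large-subunit protein gene, read 6150, 4708, 5392, 6132 and 6207 in the vehicle group and 2683, 2196, 2508, 2008 and 1688 in PE, 2.59-fold lower (adjusted p = 3.86e-07), with no overlap. Import, folding and dynamics genes fell in 36 of 45 (median -0.80), among them the cristae organisers Immt (-1.21) and Chchd3 (-1.44). The 1 that rose was the inner-membrane protease gene Yme1l1 (0.57). Carriers of the inner membrane fell in 22 of 35 and rose in 2, the citrate carrier Slc25a1 (0.48) and the peroxisomal carrier Slc25a17 (0.59). Both of these rises were lost when single arrays were left out, among them PE replicates 3, 4 and 5, with values from 0.40 to 0.59 and from 0.49 to 0.76.

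These falls were measured in tissue whose heart muscle markers were lower as well. Of 23 cardiomyocyte markers 21 fell and none rose (median -0.89). Summed over the list, vehicle arrays read 775800 to 905300 and PE arrays 325500 to 909500. The part of that difference in the metabolic lists was not tested. On PE replicate 2, the array with the highest GAPDH ratio, the cardiomyocyte markers averaged 0.007 log2 units from the vehicle mean, while fatty acid genes on the same array averaged -1.003 and citric acid cycle genes -0.98. On the other 4 PE arrays both kinds of list were lower, with cardiomyocyte markers between -1.51 and -0.81.

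**Figure D2:**
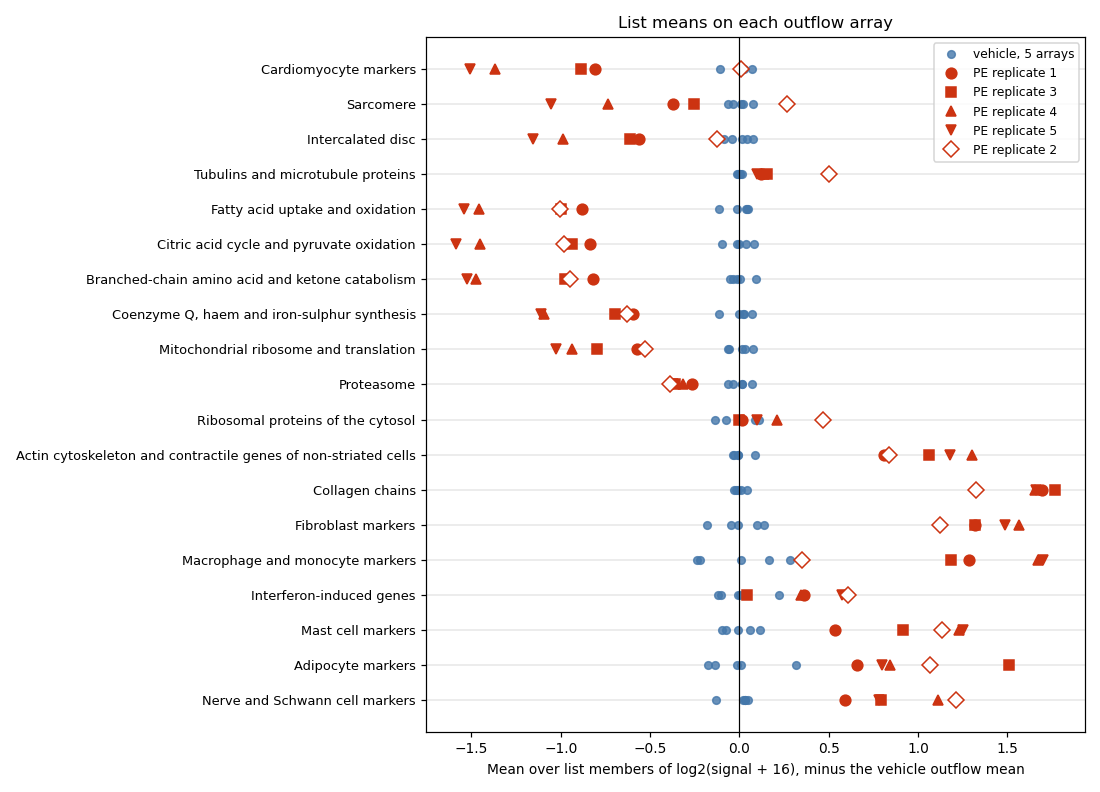
Mean deviation of the members of 19 lists from the vehicle outflow mean, in log2(signal + 16), on each of the 5 vehicle arrays (blue) and 5 PE arrays (red; replicate 2, with the high GAPDH ratio, is the open diamond). On replicate 2 the cardiomyocyte list averages 0.007 and the fatty acid list -1.003, and replicates 4 and 5 are lowest for both lists.

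The depth of the fall varied between rats. Fatty acid genes averaged -0.88, -1.003, -0.999, -1.46 and -1.54 log2 units from the vehicle mean on PE replicates 1 to 5. Replicates 4 and 5, which also had the highest GAPDH ratios after replicate 2, were the lowest, and all 5 lay below every vehicle array. With replicates 1 and 3 alone, the list's median was -1.20 and 37 of the 38 members called lower with all arrays kept their call. So did 30 of 33 citric acid cycle genes and 60 of 67 mitochondrial ribosome genes.

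Glucose handling was not raised as a whole. Of 44 genes of glucose uptake, glycolysis and glycogen, 28 fell and 8 rose (median -0.68). Slc2a4 encodes GLUT4, the insulin-regulated glucose transporter of muscle. Its signal was 9578, 9897, 10010, 9351 and 12670 in the vehicle group and 3822, 3980, 3633, 1655 and 1742 in PE, 3.69-fold lower (adjusted p = 1.45e-06), and its second probe set fell too (-1.64). The muscle enzymes Pfkm (-2.004), Pygm (-1.96) and Gys1 (-1.83) fell with it. Some of the 8 members that rose are forms known mainly from other tissues: Slc2a3 (0.47), Pfkp (0.67), Pygl (0.99), Aldoc (1.46) and the lactate exporter Slc16a3 (1.45). Tkt of the pentose phosphate path (0.94) also rose. The calls of Slc2a3 and Slc16a3 were lost with PE replicates 1 and 3 alone (0.30 and 1.17) and with the GAPDH ratio as a covariate (0.27 and 1.23), and that of Slc2a3 also after quantile normalization (0.33) or median centring (0.34). Of 18 creatine, phosphotransfer and oxygen storage genes, 10 fell, with muscle creatine kinase Ckm at -1.52, and 5 rose, with cytoglobin (Cygb) at 1.01. The risers of this list numbered 3 without vehicle replicate 4 or PE replicate 1, 4 or 5, and after median centring.

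Several genes of serine and one-carbon synthesis rose, picked out of a longer list of aminoacyl-tRNA synthetases and targets of the stress factor ATF4. Phgdh, whose enzyme starts serine synthesis from a glycolytic intermediate, read 132, 74.7, 113, 170.2 and 117 in the vehicle group and 393, 513, 772, 543 and 717 in PE. All PE arrays were above all vehicle arrays, and the rise was 4.38-fold (adjusted p = 1.01e-06). Mthfd2, a mitochondrial folate enzyme common in growing cells, read 8.86, 80.4, 50.2, 17.7 and 44 in the vehicle group and 176, 223, 560.5, 324 and 490.3 in PE, 6.77-fold higher on the log2(signal + 16) scale (adjusted p = 1.92e-05). The next enzymes Psat1 (1.64) and Psph (0.82), the regulator Atf5 (1.25) and the enzyme gene Pck2 (1.13) rose, while Shmt2 fell (-0.48). In the whole list of 42 aminoacyl-tRNA synthetases and ATF4 targets, 14 rose and 5 fell, or 3 without vehicle replicate 5. Besides Shmt2 the falls were those of the synthetases Iars1 (-0.92), Kars1 (-0.79), Vars1 and Qars1. The list's median of 0.12 lay near that of all genes and turned to -0.016 when arrays were centred on their medians. The ATF4 motif was in 8 of 39 promoters of the list (20.5%), against 0.615% of all. Of the genes with it upstream of the start, Iars1 fell and the rest were not called.

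Sarcomere genes were lower in part. Of 44 sarcomere genes 25 fell and 5 rose (median -0.67). The motif of the muscle factor MEF2 was found in 8 of 34 sarcomere promoters (23.5%), against 1.71% of all promoters, 2.7% of those that fell and 1.38% of those that rose. Both strands were searched. These 6 windows are shown because the same motif stands before 5 sarcomere genes that fell and 1 that rose, with the motif in capitals.
Ttn (chr3:82332247-82332296, - strand): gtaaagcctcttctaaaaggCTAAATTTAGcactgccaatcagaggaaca
Mybpc3 (chr3:97550932-97550981, + strand): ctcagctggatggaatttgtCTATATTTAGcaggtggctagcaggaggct
Myoz2 (chr2:213852802-213852851, - strand): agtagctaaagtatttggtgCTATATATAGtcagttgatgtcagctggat
Smpx (chrX:41107209-41107258, - strand): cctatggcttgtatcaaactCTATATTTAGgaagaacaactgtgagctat
Fhl2 (chr9:52954541-52954590, - strand): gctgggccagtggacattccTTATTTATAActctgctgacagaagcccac
Myoz1 (chr15:3693510-3693559, + strand): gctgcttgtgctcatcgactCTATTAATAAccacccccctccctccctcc
Ttn, the molecular spring titin, fell by 1.33, and the myosin-binding protein gene Mybpc3 by 1.04. Myoz2, Smpx and Fhl2, which encode proteins of the Z-disc and costamere, fell by 1.07, 1.21 and 1.15. Myoz1, the fast skeletal relative of Myoz2, rose (1.19, adjusted p = 0.00046). Promoters of the list with the motif that were not called belonged to Capn3 and Synpo2l.

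The other risers of the sarcomere list were Fhl1 (0.54), fast troponin T (Tnnt3, 1.68), Tpm2 and Myl4. Tpm2, beta-tropomyosin, read 1462, 914, 1320, 1691 and 1229 in the vehicle group and 4584, 9237, 12820, 18050 and 12290 in PE. The groups did not overlap, PE replicate 1 was the lowest of its group, and the log2 fold change was 2.98 ± 0.30 (adjusted p = 5.67e-07), while a dimmer probe set was not called (0.67). Tpm2 is also a smooth muscle gene. Myl4, the light chain of fetal and atrial muscle, read 126, 509, 729.6, 143 and 125 in the vehicle group and 1749, 3164, 4372, 1865 and 1120 in PE, 8.43-fold higher (adjusted p = 0.000913). Its vehicle values varied more than 5-fold between rats, and its PE effect in the apex was 2.29, so the regional difference was not called (adjusted p = 0.63). Of the other 11 atrial markers 4 rose and 2 fell. Their median was -0.046, from -0.47 to 0.006 when 1 array was left out and 0.13 with PE replicates 1 and 3 alone. The part of included atrial tissue in the Myl4 values was not tested.

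Many genes of cell contacts and excitation fell. Of 24 intercalated disc genes, 16 fell and 1 rose, Gja5, a connexin of atrium, conduction tissue and arteries (0.74). Dsp, desmoplakin, read 20820, 18870, 21960, 19840 and 21130 in the vehicle group and 9409, 13010, 10220, 5619 and 4502 in PE. Its PE values did not reach the vehicle range, replicate 2 was nearest, and the log2 fold change was -1.36 ± 0.20 (adjusted p = 2.97e-05). A dimmer Dsp probe set went the other way (0.81, adjusted p = 0.0192). Of 35 genes of the dyad and T-tubule, 22 fell and 6 rose. Tmem38a, a counter-ion channel of the calcium store, read 5182, 4500, 4605, 4490 and 5872 in the vehicle group and 2095, 2360, 1912, 937 and 897 in PE, 3.21-fold lower (adjusted p = 5.58e-06). Its PE values fell into a higher set, replicates 1 to 3, and a lower one, replicates 4 and 5. Jph2 (-1.55), which ties the T-tubule to the store, and the release channel Ryr2 (-1.50) fell, while the release channels of other cell types, Itpr1 (1.18) and Itpr3 (0.93), and Stim1 (0.82) rose.

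Potassium channel genes changed in both directions. Of 32 channel genes 14 fell and 5 rose. Kcnh2 encodes the rapid delayed rectifier channel hERG. Its signal was 258, 281, 212, 253 and 331 in the vehicle group and 93.9, 7.63, 128, 54.8 and 12.1 in PE. No PE array reached the vehicle range, the PE values spread more than 10-fold with replicates 2 and 5 near the floor, and the log2 fold change was -2.24 ± 0.36 (adjusted p = 6.2e-05). With replicates 1 and 3 alone it was -1.16 (adjusted p = 0.000117). Kcnk2, the stretch-activated channel TREK-1, read 922, 986, 925, 1014 and 1090 in the vehicle group and 319.6, 169, 284, 151 and 131 in PE, 4.67-fold lower (adjusted p = 3.59e-07), and its dimmer probe set fell too (-0.83). The transient outward current genes Kcnip2 (-1.50) and Kcnd3 (-1.42) and the atrial-type channel genes Kcnj3 (-1.19) and Kcnj5 (-1.38) fell. Against the list, Kcnma1, the large-conductance channel known from smooth muscle, read 34.8, 32.2, 64.7, 77.7 and 44.7 in the vehicle group and 433, 364, 674, 626 and 838 in PE, 8.95-fold higher (adjusted p = 5.94e-08), with its partner Kcnmb1 at 1.51. Of its 3 probe sets, the other two were dimmer and not called (0.04 and 0.28).

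Adrenergic and cyclic AMP genes were split, with 18 of 51 lower and 16 higher, against 18.0% and 26.3% of all genes. The beta-1 receptor Adrb1 (-0.96) and alpha-1B receptor Adra1b (-1.73) fell, and Adrb3, a receptor of fat cells and endothelium, rose (1.22). Dystrophin complex and costamere genes fell in 10 of 28 and rose in 5, the risers being the laminin genes Lama4 (0.87), Lamb1 and Lamc1, Sgce and Krt19. Heat shock genes fell in 11 of 24. The small heat shock protein gene of muscle, Hspb2, read 1949, 1797, 1850, 2126 and 2836 in the vehicle group and 977, 1019, 883, 646 and 542 in PE, 2.6-fold lower (adjusted p = 5.46e-06), with no overlap. Hspa2, a testis- and brain-rich chaperone gene, rose (2.29).

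Among 28 transcription factors of heart muscle, 11 fell and 3 rose. Nkx2-5, the homeobox factor of the cardiac lineage, read 2483, 2980, 2550, 2595 and 3474 in the vehicle group and 1082, 1183, 938, 488 and 415 in PE. The fall was 3.64-fold (adjusted p = 2.73e-06), deepest on replicates 4 and 5, and all PE arrays were below all vehicle arrays. Tbx5 (-1.09), Gata5 (-1.50), Gata4 (-0.50) and Irx3 (-1.46) fell, and the actin-responsive coactivator Mrtfa rose (0.81). Gata4 was not called with PE replicates 1 and 3 alone (-0.12), with array weights (-0.31) or with the GAPDH ratio as a covariate (-0.21).

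The paralogues of ribosomal protein L3 changed in opposite directions. Rpl3l is the ribosomal protein L3 of striated muscle. Its signal was 8995, 8284, 8254, 9312 and 10950 in the vehicle group and 2796, 3443, 2061, 1161 and 944 in PE, 4.88-fold lower (adjusted p = 1.29e-06). Rpl3, the general form, read 11900, 12340, 13050, 15240 and 10820 in the vehicle group and 22680, 27430, 25490, 28890 and 25410 in PE, 2.06-fold higher (adjusted p = 4.53e-07). Neither gene's groups overlapped. Of the 42 general ribosomal protein genes of the cytosol, 4 were called higher, Rpl3 included, and none lower (median 0.15). This count depends on the scaling and on single arrays. It was 34 higher (median 0.47) after quantile normalization, 1 higher and 3 lower (0.016) after median centring, 1 higher and 4 lower (-0.02) with the GAPDH ratio as a covariate, and 9 higher without PE replicate 1. Whether the probe sets of these related genes share signal was not tested.

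Lists of protein breakdown genes differed in direction. Proteasome genes fell in 21 of 36 (median -0.41), and the 1 that rose, Psmb8 (1.10), encodes a subunit of the immune form. Autophagy and muscle ubiquitin ligase genes fell in 21 of 35, with the ligase Trim63 (MuRF1) at -1.83, and rose in 5, with Foxo3 at 0.63 (3 after median centring). Lysosomal genes instead rose in 25 of 41, among them the immune-cell cathepsin Ctss (1.80) and the glycosidases Gusb (1.57) and Hexa (1.41), while 4 fell, including acid glucosidase Gaa (-0.71). Antioxidant genes changed in both directions, with 20 of 48 lower, such as the mitochondrial Prdx3 (-1.38) and Sod2 (-1.15), and 12 higher, such as the endoplasmic reticulum forms Gpx7 (1.26), Gpx8 (1.71) and Prdx4 (1.12) and the phagocyte oxidase Cybb (1.57). The higher count was near the share of all genes (26.3%), and it was 7 after median centring.

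**Figure D3:**
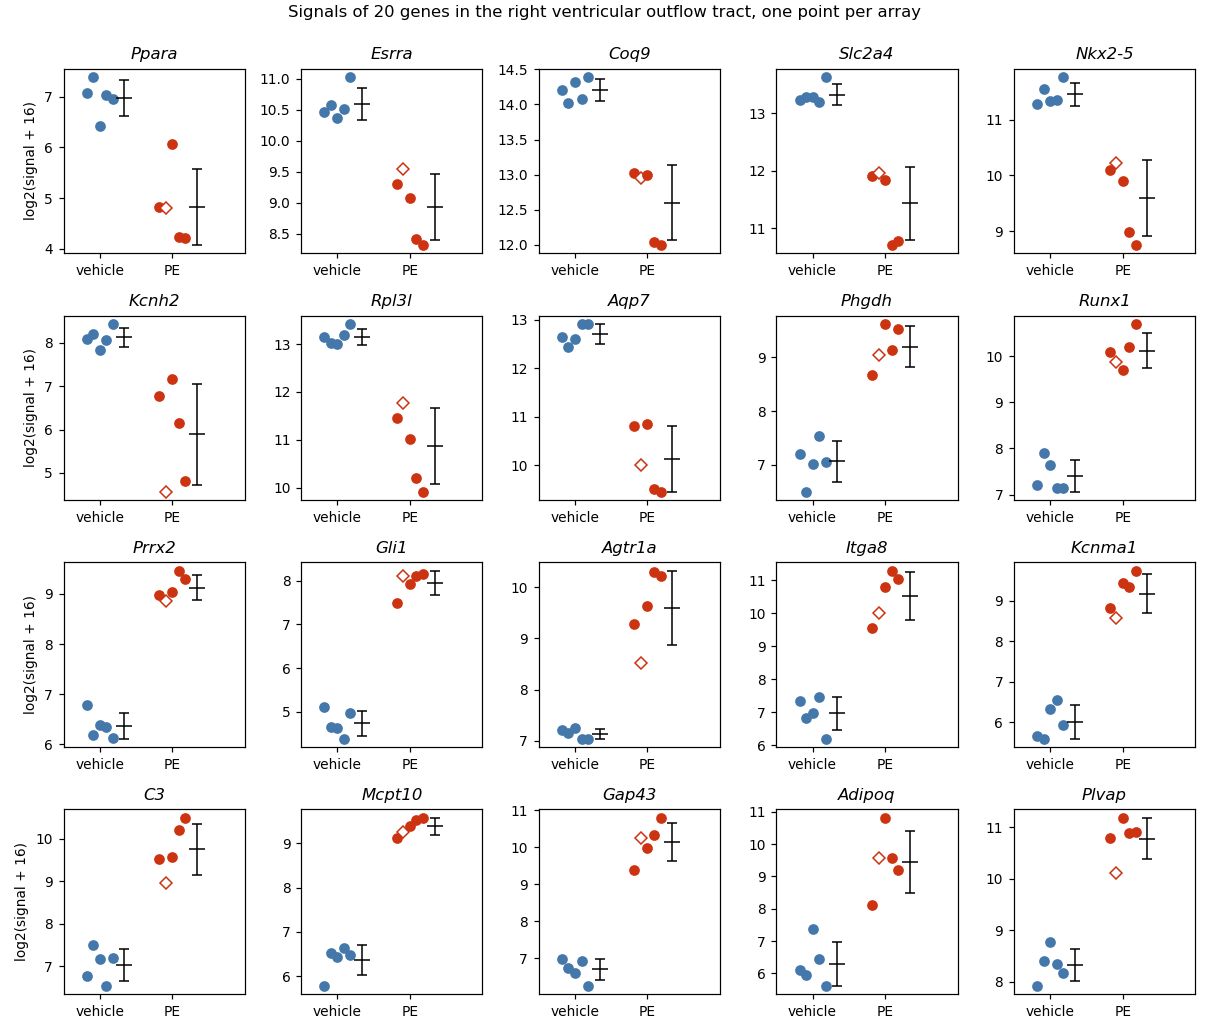
log2(signal + 16) of 20 genes on the 5 vehicle (blue) and 5 PE (red) outflow arrays, with the mean and standard deviation in black; PE replicate 2 is the open diamond. For each of the 20 genes the 2 groups do not overlap, and replicates 4 and 5, the last points, are the lowest PE arrays for Esrra, Coq9, Slc2a4, Nkx2-5, Rpl3l and Aqp7.

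Genes that make and export matrix rose. Of 26 genes for folding, crosslinking and processing collagen, 25 rose and none fell (median 0.82), among them the crosslinking oxidase Loxl1 (2.74), the hydroxylase P3h3 (2.18), and Pcolce (2.08) and Bmp1 (1.73), which act in the cutting of procollagen. Collagen chain genes rose in 22 of 24 (median 1.61). Their mean rise was smallest on PE replicate 2, at 1.33, against 1.65 to 1.77 on the other PE arrays. Glycosaminoglycan synthesis rose in 22 of 34, with the sulphate donor enzyme Papss2 at 1.96, and fell in 1. ADAM and ADAMTS family genes rose in 12 of 21, with Adamtsl2 at 2.76, and fell in 3, with Adam19 at -1.0.

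Folding and transport in the secretory pathway rose by smaller amounts. Endoplasmic reticulum folding and stress genes rose in 25 of 37 and fell in 3 (median 0.42), and the genes from translocon to Golgi rose in 23 of 61. With arrays centred on their medians these counts were 14 and 15. The endoplasmic reticulum stress element, ERSE, is the bipartite promoter motif bound under misfolded-protein stress. It was found in 8 of 29 promoters of the folding list (27.6%) and in 0.145% of all promoters, searched on both strands. The windows of the 6 members that have it and rose are shown, with the element in capitals.
Hspa5 (chr3:38452953-38453011, + strand): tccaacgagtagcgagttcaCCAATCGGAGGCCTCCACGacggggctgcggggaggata
Hsp90b1 (chr7:23012431-23012489, - strand): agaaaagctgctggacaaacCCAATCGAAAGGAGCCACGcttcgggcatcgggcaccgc
Dnajc3 (chr15:102432514-102432572, + strand): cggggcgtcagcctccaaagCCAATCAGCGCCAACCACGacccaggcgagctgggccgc
Creld2 (chr7:121789219-121789277, + strand): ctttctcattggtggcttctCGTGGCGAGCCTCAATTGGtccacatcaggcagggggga
Xbp1 (chr14:84604538-84604596, + strand): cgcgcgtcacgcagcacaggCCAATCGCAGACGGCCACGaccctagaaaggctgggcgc
Ero1b (chr17:92941438-92941496, + strand): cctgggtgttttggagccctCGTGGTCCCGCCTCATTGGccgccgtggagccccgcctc
The 2 others with the element, Calr and Canx, were not called. Creld2 rose most of these 6. Its signal was 507, 394, 372, 405 and 398 in the vehicle group and 1097, 907, 836, 2412 and 1448 in PE, highest on PE replicate 4, and the rise was 2.93-fold (adjusted p = 2.4e-05). The master chaperone Hspa5 (BiP) rose by 0.38, Hsp90b1 by 0.44, Dnajc3 by 0.61, the stress factor Xbp1 by 0.42 and the oxidase Ero1b by 0.54 on the log2 scale. Hspa5, Hsp90b1 and Ero1b were close to the threshold (adjusted p = 0.027, 0.0392 and 0.0454). Their calls were lost without PE replicate 4 (0.28, 0.29 and 0.45) or 5 (0.34, 0.34 and 0.53), Ero1b also without PE replicate 2 (0.46), Hsp90b1 also without vehicle replicate 1 or 3 (0.46 and 0.43), and all 3 without vehicle replicate 2, 4 or 5 (values from 0.34 to 0.56). The calcium-binding Rcn3 (1.66) and Rcn1 (1.49) of the same list rose too.

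Fibroblast markers rose in 21 of 24 (median 1.48), with Pi16 at 2.20 and Pdgfra at 1.37. Activated fibroblast and myofibroblast markers rose in 20 of 22 (median 2.47), with Ccn2 at 3.17 and Tgfb3 at 2.28, and cartilage, tendon and valve markers in 15 of 23, with Fmod at 3.17 and Tnmd at 2.66. The tendon factor Scx fell (-1.25). Of 31 transcription factors of fibroblasts and mesenchyme, 16 rose and 4 fell. Prrx2, a homeobox factor of embryonic connective tissue, read 93.9, 57.2, 67.6, 65.8 and 53.7 in the vehicle group and 489, 446, 509, 686 and 613 in PE, 6.76-fold higher (adjusted p = 1.28e-08), while its dimmer probe set was not called (0.39). Runx1, a factor of blood and of reprogrammed muscle and stromal cells, read 132, 225, 183, 125 and 125 in the vehicle group and 1072, 924, 814, 1170 and 1644 in PE, 6.52-fold higher (adjusted p = 5.89e-08), and its second probe set rose as well (2.19). For both genes the groups were far apart. Meox1 (1.93), Zeb2 (1.38) and Twist1 (1.32) rose.

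Ligands and receptors that act on these cells changed in both directions. Of 51 growth factor genes 17 rose and 10 fell, near the shares of all genes, 26.3% and 18.0%. Inhba, which encodes the activin A chain, read 212, 276, 214, 206 and 156 in the vehicle group and 929, 752, 976, 1741 and 1783 in PE, 5.22-fold higher (adjusted p = 2.83e-07), while a dimmer probe set was not called (-0.05). Igf1 (1.79), Bmp4 (1.66), endothelin-1 (Edn1, 1.79), Mdk (1.84) and Angpt2 (2.21) rose. Vegfb (-1.54), Fgf1 (-1.55), Fgf13 (-1.76) and Apln (-1.27), which heart muscle or vessels normally make, fell. Among 37 receptor and hormone-handling genes, 12 rose and 5 fell, or 3 without vehicle replicate 5 or PE replicate 3 or 5. With all arrays these counts were near the background shares too. Agtr1a, the angiotensin II type 1a receptor, read 132, 126, 137, 115 and 116 in the vehicle group and 612, 353, 778, 1235 and 1182 in PE. The vehicle values were tightly grouped, PE replicate 2 was the lowest of the PE arrays, and the rise was 5.47-fold (adjusted p = 7.26e-07), with the second probe set at 1.47. The platelet-derived growth factor receptor Pdgfrb (1.66), Fgfr2 (2.35) and angiotensin-converting enzyme (Ace, 1.09) rose, and the insulin receptor Insr fell (-0.74).

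Wnt, Notch and Hedgehog components rose in 14 of 41 and fell in 3, against 26.3% and 18.0% of all genes. Gli1, a transcription factor that is itself a readout of Hedgehog signalling, read 18.3, 8.97, 8.61, 4.79 and 15.2 in the vehicle group and 163, 258, 227, 259 and 268 in PE. Vehicle values were near the floor, PE values differed among themselves by less than 2-fold, and the log2 fold change was 3.21 ± 0.27 (adjusted p = 1.04e-07). The Notch genes Notch4 (-0.93), Dll4 (-0.81) and Jag2 (-0.81) fell and Jag1 rose (1.19). Integrin and matrix receptor genes rose in 15 of 28 and fell in 2. Itga8, an integrin of smooth muscle and fibroblasts, read 147, 97.9, 110, 161 and 57.5 in the vehicle group and 733, 1006, 1761, 2468 and 2058 in PE, 11.8-fold higher (adjusted p = 9.31e-08), and its dimmer probe set rose less (1.12). The muscle laminin receptor Itga7 fell (-1.34).

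Actin and smooth muscle genes rose too. Of 50 actin cytoskeleton and non-striated contractile genes, 38 rose and 4 fell (median 1.01). Acta2, smooth muscle actin, read 1809, 1385, 2270, 1982 and 1903 in the vehicle group and 6242, 6022, 12170, 14390 and 11250 in PE, 5.07-fold higher (adjusted p = 5.03e-06). Cnn1, calponin, read 154, 81.1, 182, 218 and 133 in the vehicle group and 718, 1172, 1878, 2194 and 1829 in PE, 9-fold higher (adjusted p = 5.73e-05). For both, PE replicates 1 and 2 were the lowest of their group and still above all controls. Non-muscle myosin Myh10 (1.78), Csrp2 (3.17) and Tpm3 (1.66) rose. Smooth muscle and pericyte markers rose in 12 of 21 and fell in 6, and those that fell include Des, Casq2 and Pln, which heart muscle also expresses. Tubulin and microtubule genes were mixed, with 6 of 20 higher, Tubb6 at 1.93, and 3 lower, or 5 without PE replicate 2, Tuba8 at -2.03. With all arrays these counts were near the shares of all genes, 26.3% higher and 18.0% lower.

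Among immune cells, macrophage genes rose. Of 36 macrophage and monocyte markers, 32 rose and none fell (median 1.26). Adgre1, which encodes F4/80, read 251, 237, 341, 272 and 188 in the vehicle group and 1382, 679, 1078, 1825 and 2160 in PE. The rise was 4.96-fold (adjusted p = 7.1e-07), smallest on PE replicate 2. The whole list averaged 0.35 on that array and 1.19 to 1.70 on the others. Complement genes rose in 13 of 24 and fell in 2. C3, the central component, read 94.1, 163, 127, 77.2 and 131 in the vehicle group and 718, 478, 744, 1156 and 1426 in PE, 6.54-fold higher (adjusted p = 4.64e-07), and Masp1 of the lectin path fell (-1.91). Antigen presentation genes rose in 11 of 24, including the class II genes RT1-Da (1.20) and RT1-Db1 (1.20), a count of 7 after median centring and with PE replicates 1 and 3 alone.

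Chemokine and receptor genes rose in 15 of 40 and fell in 1. Ccl21, the lymphatic chemokine that draws lymphocytes and dendritic cells, read 1596, 2104, 2535, 2111 and 2406 in the vehicle group and 7544, 6421, 8860, 11510 and 10000 in PE, 4.07-fold higher (adjusted p = 2.99e-07). The related lymphoid chemokines Cxcl13 (2.18) and Ccl19 (1.43) rose. Cxcl11, an interferon-induced chemokine, went the other way, with 1647, 1362, 1950, 2622 and 2028 in the vehicle group and 614, 697, 331, 396 and 252 in PE, 4.27-fold lower (adjusted p = 6.41e-06). The other interferon-induced genes rose in 19 of 38, such as Ifitm1 (1.70) and Mx1 (0.95). This count was 12 after median centring, 11 with the GAPDH ratio as a covariate and 5 with PE replicates 1 and 3 alone, where Mx1 lost its call (0.65). Cytokine and cytokine receptor genes rose in 19 of 37 and fell in 2, led by the decoy receptors Il1r2 (2.74) and Tnfrsf11b (2.23). Ptgs2, cyclooxygenase-2, read 43.8, 35.6, 96.3, 43.2 and 41.9 in the vehicle group and 633, 198, 597, 1022 and 973 in PE, 9.4-fold higher (adjusted p = 1.51e-06).

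Mast cell markers rose in 10 of 18, and none fell. Mcpt10, a mast cell protease gene of a family with similar copies, read 39, 75.2, 70.4, 83 and 72.6 in the vehicle group and 543, 599.5, 657, 730.3 and 748 in PE, 8.09-fold higher (adjusted p = 2.43e-07), with a gap between the groups of over 6-fold. Cpa3 (2.13), Cma1 (2.27), Tpsab1 (1.77) and the IgE receptor gene Fcer1a (2.02) rose. Lymphocyte markers rose in 5 of 27, a share below the background, in 3 without PE replicate 4 or 5, in 2 after quantile normalization or median centring, and in 0 with PE replicates 1 and 3 alone. Of 11 neutrophil markers 1 rose, Csf3r (0.93), a call lost without vehicle replicate 2 (0.84) or 5 (0.67).

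Markers of other cell types in the wall moved too. Nerve and Schwann cell markers rose in 13 of 27 and none fell. Gap43, a growth-cone protein also made by Schwann cells, read 111, 90.6, 80.9, 105 and 60.5 in the vehicle group and 655, 1203, 993, 1274 and 1754 in PE, 10.9-fold higher (adjusted p = 1.23e-08), while a dimmer probe set was not called (0.06). S100b, a glial calcium-binding protein, read 75.3, 76.7, 135, 78.9 and 106 in the vehicle group and 649, 654, 1392, 977 and 948 in PE, 8.35-fold higher (adjusted p = 5.89e-08). The myelin genes Mbp (1.95) and Pmp22 (1.80) and the nerve growth factor receptor Ngfr (2.07) rose, while the neuronal neuropeptide gene Npy was not called (0.87, adjusted p = 0.174).

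Adipocyte markers changed in both directions, with 12 of 25 higher and 7 lower. Adipoq, the fat cell hormone adiponectin, read 52.7, 45.9, 150.2, 70.8 and 33.1 in the vehicle group and 263, 743, 1777, 740.2 and 568 in PE, 8.89-fold higher (adjusted p = 9.88e-05). The values varied over 4-fold among rats of each group, with replicate 3 highest in both. Scd, stearoyl-CoA desaturase, read 32, 26.1, 23.3, 42.9 and 13 in the vehicle group and 164, 223, 756, 235 and 256 in PE, 6.99-fold higher (adjusted p = 1.03e-06), also highest on PE replicate 3. The lipid droplet genes Plin1 (3.45) and Cidec (3.32) and the synthase Fasn (1.60) rose. Of the 7 members that fell, these are also expressed in heart muscle or its capillaries: Cidea (-1.70), Plin4 (-1.33), Lipe (-1.001), Gpd1 (-1.10), Fabp4 (-0.71) and Aqp7. Aqp7, the glycerol channel, read 6391, 5537, 6161, 7627 and 7671 in the vehicle group and 1779, 1024, 1847, 719 and 689 in PE, 5.9-fold lower (adjusted p = 1.26e-07). The summed signal of the 25 adipocyte markers was 37820 to 42870 in the vehicle group and 23890 to 43160 in PE, and the part of attached fat in these values was not tested.

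Endothelial markers were called higher in 8 of 31 and lower in 8 (median -0.13), against 26.3% and 18.0% of all genes. Without PE replicate 2, the lower ones numbered 13 against 8 higher. Plvap, the diaphragm protein of fenestrated and remodelling vessels, read 227, 324, 419, 309 and 272 in the vehicle group and 1753, 1087, 2305, 1884 and 1893 in PE, 5.47-fold higher (adjusted p = 7.94e-08), and Vwf (1.84) and Eng (1.11) rose. Car4, carbonic anhydrase of heart capillaries, read 1492, 1322, 1296, 1501 and 1406 in the vehicle group and 685, 426, 436, 199.7 and 338 in PE, 3.51-fold lower (adjusted p = 3.44e-05), and a dimmer probe set was not called (-0.29). Kdr, the main vascular endothelial growth factor receptor, fell (-0.62). Mesothelium and epicardium markers rose in 9 of 19 and fell in 1, led by Krt19 (2.77), and C3 is on that list as well. Cell cycle and DNA replication genes rose in 19 of 52 and fell in 1, with Mki67 at 1.39, and immediate early genes rose in 11 of 34, with Egr2 at 1.65. The share of all genes that rose was 26.3%.

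Lists of blood, lung epithelium, circadian clock and skeletal muscle genes showed few calls. The cartilage, tendon and valve, adipocyte, mesothelium and atrial lists, given above, showed more, and the part of carried-along tissue was not tested. Blood and platelet markers gave 1 higher and 2 lower of 13, lung epithelium markers 1 higher of 12 with a summed signal of at most 930 on any outflow array, and circadian clock genes 1 higher and 1 lower of 17. Skeletal muscle markers gave 4 higher and 2 lower of 18.

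The same treatment left the apex of the same ventricles almost without calls. There, 3 of 14217 genes were called (0.0211%), all higher: Mfap4, Nppa and Sbsn. The difference between the PE effects in the 2 regions, tested as an interaction, was called for 3451 genes (24.3%). That fit treated apex and outflow samples of the same rat as independent. With the rat as a random block, 6074 probe sets differed between regions, against 5567 without the block. Of the 222 genes that rose at least 4-fold in the outflow tract, 205 rose more there than in the apex by this test, and all 46 that fell 4-fold did so more. These genes were selected by the size of their outflow effect, which enters the difference, so the selection favoured both counts. They are not separate evidence of a regional difference. Among the 42 genes whose array values are given above, also picked with outflow values known, 40 passed the test of the difference. The exceptions were Myl4 and Adipoq, whose apex estimates were 2.29 ± 0.65 and 1.37 ± 0.53. Scd showed opposite estimates, 2.81 in the outflow tract and -0.79 ± 0.30 in the apex, and so did Ppara, with -2.15 and 0.47 ± 0.32, although neither apex value was called (adjusted p = 0.55 and 0.8). The estimates of C3 were opposite too, at 2.71 and -0.11 ± 0.27, and its apex value was not called. List medians in the apex kept the direction of the outflow tract at a smaller size for fatty acid genes (-0.25), fibroblast markers (0.41) and macrophage markers (0.25). This did not hold for every list. Apex medians were 0.02 for intercalated disc genes (-0.86 in the outflow tract) and -0.01 for cartilage, tendon and valve markers (1.43). For lymphocyte markers the apex median was -0.16 (0.34 in the outflow tract).

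**Figure D4:**
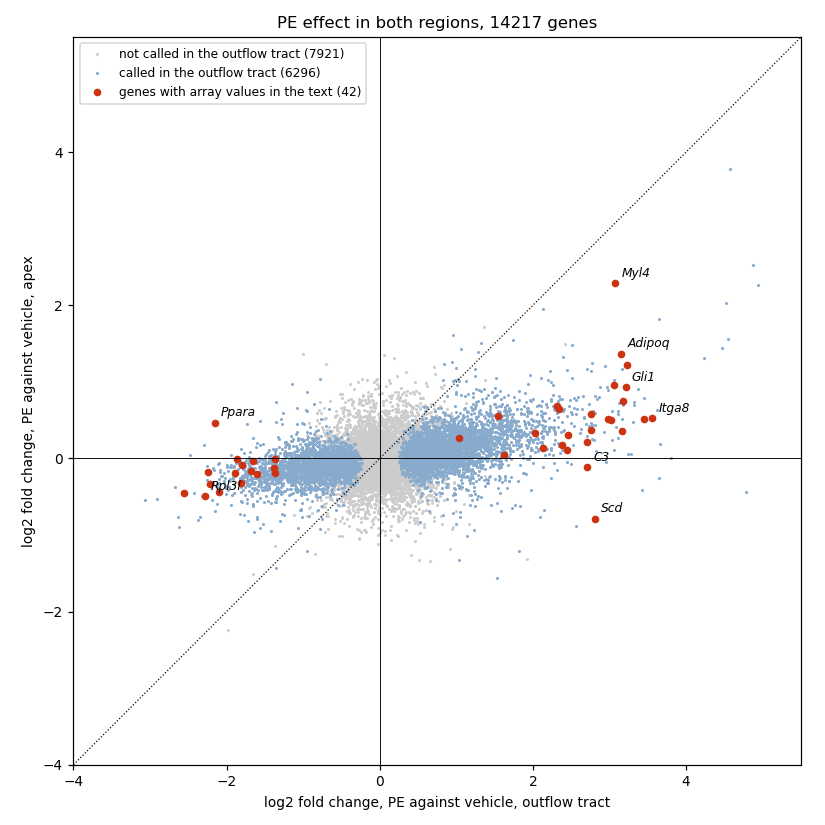
Log2 fold change of PE against vehicle in the outflow tract (horizontal) and the apex (vertical) for 14217 genes; blue genes were called in the outflow tract, red points are the 42 genes with array values in the text, and the dotted line marks equal effects. Most called genes lie close to an apex change of 0, and Myl4 and Adipoq have the highest apex estimates of the red points. Scd, Ppara and C3 have apex estimates of the opposite sign, that of C3 close to 0 (-0.11).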

How the data were processed

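Right ventricular RNA of 20 samples was labelled with biotin, per the labels' protocols, and hybridised to Affymetrix arrays. The deposited values are linear intensity signals that the authors had scaled to a common trimmed mean on each array; how the signals were computed from the scans is not given in the sources used here. Control probe sets were left out, which left 31042 probe sets; 20826 had 1 gene symbol in the platform annotation, 436 several and 9780 none, and 20758 matched a RefSeq gene (GRCr8).

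log2(signal + 16) of all 20 arrays, as 4 groups, was fitted in R 4.3.3 by limma 3.58.1 (empirical Bayes variances, Benjamini-Hochberg adjustment) to give the PE effect in the outflow tract, in the apex, and their difference. The fit was also run on simulated data with independent probe sets and arrays. That simulation held no paired rats and no array with degraded RNA, so it does not cover those features of the data. The number of arrays limits the precision. Outflow replicates are separate rats by their labels. Replicate numbers do not pair vehicle with PE rats: same-numbered outflow samples had correlated deviations of -0.283 to 0.103. Apex and outflow samples of one number and treatment did pair (0.181 to 0.283, best match in 20 of 20).

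Gene lists (63, with 1894 measured genes) and the members of the comparison were chosen with earlier results of these data known. Named genes were the 30 largest rises and 30 largest falls among called genes with a mean above 8 log2 units in either outflow group; in each list up to 6 members with the smallest p in each direction, up to 3 not called, and called members against the list's majority; and a set of index genes. Ttn, Mybpc3, Perm1, Sirt5, Acad11, Cox17, Hspa5, Hsp90b1, Xbp1 and Ero1b were named for a promoter motif, after their values were seen. Alternatives were quantile normalization, median centring, adding 1 or 64 before log2, leaving out the 40% dimmest probe sets, the 10 outflow arrays alone, array weights, robust variances with an intensity trend, the GAPDH ratio as a covariate, replicate or rat blocks, another probe set per gene, and leaving out arrays. The injected vehicle volume differs between the labels and is not reported here. Array scan or hybridisation batches are not used here.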

Additional observations from a re-analysis of the deposited data

Results flagged for a closer look

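PE outflow replicate 2 lay far from the other 4 PE arrays in its control ratios, 6.12 for GAPDH and 11.5 for actin. Its mean correlation with its own group was 0.929 and its brightest probe set read 112200, both apart from the rest of the group. On the same array the mean deviation of tubulin genes was 0.50 log2 units and that of skeletal muscle markers 0.73, each the highest of the group, and that of collagen chains was 1.33, the lowest. No explanation for these values was tested.

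Among vehicle arrays, replicate 5 was high for Ivd (7629), Slc2a4 (12670), the glucose list (0.13) and the autophagy and ubiquitin ligase list (0.10, list means in log2 units from the vehicle mean). Vehicle replicate 1 was high for Creld2 (507) and low for Mcpt10 (39). Vehicle replicate 3 was high for Ptgs2 (96.3) and low for the dyad list (-0.027) and the nerve and Schwann cell list (-0.13), and vehicle replicate 4 was high for the actin list (0.085). Within PE, replicate 3 was high for Scd (756). Each was flagged because 1 of 5 samples lay apart from the other 4 by more than 0.71 of the group's range, and chance flags about 1 in 20 groups.

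The PE effect differed between the outflow tract and the apex by the interaction test (limma, adjusted p below 0.05) for 40 of the 42 genes with array values. The 42 genes were picked with their outflow values known, which favours this count. The difference of log2 fold changes, outflow tract minus apex, was above 0 for Scd (3.59), Itga8 (3.04), Gap43 (2.93), C3 (2.82), Kcnma1 (2.81), Mcpt10 (2.51), Runx1 (2.49), Tpm2 (2.47), Cnn1 (2.42), Mthfd2 (2.39), Plvap (2.34), Gli1 (2.28), Inhba (2.21), Prrx2 (2.17), Agtr1a (2.15), S100b (2.10), Ptgs2 (2.01), Phgdh (1.997), Acta2 (1.70), Ccl21 (1.69), Adgre1 (1.62), Pdk3 (1.57), Creld2 (1.0) and Rpl3 (0.77). It was below 0 for Ppara (-2.62), Aqp7 (-2.11), Kcnh2 (-2.06), Kcnk2 (-1.88), Nkx2-5 (-1.86), Rpl3l (-1.80), Ivd (-1.71), Slc2a4 (-1.70), Cxcl11 (-1.65), Esrra (-1.62), Tmem38a (-1.52), Car4 (-1.49), Coq9 (-1.40), Mrpl3 (-1.36), Hspb2 (-1.25) and Dsp (-1.17).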

How the results depend on the processing

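Of 234 genes given with outflow values, 232 were called, and 210 of these kept direction and call in each of the 22 alternatives in which they were tested, the 42 genes with array values among them. All 22 alternatives used the brightest probe set of each gene. Some other probe sets of the 42 genes were not called or, for Dsp, went the other way, as given above. The 22 other called genes kept their direction and lost their call in some setting, most often with PE replicates 1 and 3 alone (18 genes). The filter on dim probe sets left some of them untested. Calls lost with PE replicates 1 and 3 alone and not mentioned above included those of Adrb1, Fabp4, Jag2, Lipe, Notch4, Shmt2 and Yme1l1. With the replicate number as a block, Kdr, Mybpc3 and Xbp1 lost theirs. Counts of members called higher that were over 1.5 times smaller with PE replicates 1 and 3 alone were 10 for adrenergic and cyclic AMP genes, 5 for glucose genes, 2 for autophagy and ubiquitin ligase genes, 16 for endoplasmic reticulum folding genes and 12 for cell cycle genes. Npy, not called, turned to -0.035 with PE replicates 1 and 3 alone. The median of the synthetase and ATF4 list turned to -0.016 after median centring, the only such turn among list medians larger than the standard deviation of their 5 PE arrays. Probe sets called in the outflow tract numbered 10720, from 9446 to 11525 when 1 array was left out. With PE replicates 1 and 3 alone, 3947 probe sets (2486 genes) were higher and 3646 differed between regions, a setting with fewer arrays. Without PE replicate 2, 7127 differed between regions, against 5567 with all arrays. Higher and lower probe sets were 5177 and 5367 after quantile normalization, and 4415 and 5966 after median centring. With the replicate number as a block over the 10 outflow arrays, 7390 probe sets were called, and with the rat as a random block 10718, and 2 of 10 outflow arrays correlated best with the array of their own number in the other group. Genes called higher numbered 3741 with the brightest probe set and 3947 with that of the smallest p, and genes called lower 2555 and 2881. Signals near the floor, as for Gli1 in the vehicle group, have an uncertain fold.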

Other observations

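Several of the largest changes belong to none of the themes above. Rises of at least 4-fold included Ccn3, a matricellular protein gene related to Ccn2 (3.62), Ibsp and Tmem119, both known from bone-forming cells (3.28 and 3.31), the tight junction gene Cldn11 (3.24), the imprinted gene Nnat (3.31), Ecrg4, which encodes a secreted precursor peptide (3.22), and the Fc receptor-like gene Fcrl2 (3.37), in log2 fold change. Ibsp was at 4.18 without PE replicate 2. Falls included the iron-regulatory haemojuvelin gene Hjv (-2.13), the heart-specific kinase gene Tnni3k (-2.12), Ddit4l, an inhibitor of mTOR signalling (-2.15), the RNA-binding gene Csdc2 (-2.13), and the muscle-rich genes Klhl38 (-2.25), Asb12 (-2.11), Lrrc14b (-2.25) and Txlnb (-2.10). All were called by limma after adjustment.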
